A study of Mus musculus with 4 samples.

Results

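Apolipoproteins are the proteins that give lipoprotein particles their structure and direct them to enzymes and receptors, and the liver makes most of them. Apob is the scaffold of very low density lipoprotein, and microsomal triglyceride transfer protein, encoded by Mttp, loads it with lipid in the endoplasmic reticulum. Apoa1 and Apoa2 are the main proteins of high density lipoprotein (HDL), and the small C apolipoproteins move between particle classes. The genes described here are Apoa1, Apoa2, Apoa4, Apoa5, Apob, Apoc1, Apoc3, Apoe, Apom and Mttp, chosen by symbol. Of these 10 genes, 4 were found among the 7000 genes of the liver table, namely Apoa1, Apoa2, Apob and Apoc1.

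Liver RNA was sequenced from male wild-type FVB/N mice that received, from weaning and for 6 weeks, a Se-deficient diet with either no added Se (0 Se, 2 mice) or 0.1 ppm Se as sodium selenite (0.1 Se, 2 mice). Ribosomal RNA was removed, and the libraries were read from 1 end in 50 cycles. The level of a gene is given in CPM (counts per 1000000 aligned reads), as the authors' mean over the 4 libraries of both diets together, because the table has 0 columns for a single mouse. Levels of different genes are compared as CPM per kilobase of the mRNA to which the reads were aligned, since a long mRNA yields more fragments. The spread between mice and the depth of each library were not analysed here, so no value has an error, no difference between genes was tested, and the diets were not compared.

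A pair of sequences is shown, the first because Apoc1 has the shortest mRNA among the listed members, and the second because it is the site where the Apob mRNA can be edited to encode a shorter protein. They were taken from the GENCODE gene models on NCBIM37, which is the mm9 assembly used for the alignment. The entire coding sequence of Apoc1 has 267 bases and is shown with its start and stop codons in capitals. The Apob stretch of 30 bases lies on the plus strand of chr12:8014850-8014879, in exon 26 of 29, with the glutamine codon in capitals whose first base, at position 8014860, is the target of C-to-U editing by the enzyme Apobec1.
Apoc1 coding sequence: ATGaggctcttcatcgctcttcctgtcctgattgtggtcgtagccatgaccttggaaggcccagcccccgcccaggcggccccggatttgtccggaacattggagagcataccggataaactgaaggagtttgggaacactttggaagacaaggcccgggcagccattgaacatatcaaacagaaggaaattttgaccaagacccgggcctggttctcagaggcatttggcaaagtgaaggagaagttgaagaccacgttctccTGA
Apob editing site: atacgcgataCAAtttgatcagtatattaa

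Apob had the highest mean CPM of all 7000 listed genes, at 21876 CPM, or 3.38% of the CPM summed over them. Next in that order was Trf, which encodes the iron carrier transferrin, at 20523 CPM. Alb and Ttr were not among the listed genes, so this order is not that of all liver mRNAs. The Apob mRNA is also among the longest, with 13909 bases, and only 36 listed mRNAs are longer. Per kilobase its level was 1573 CPM, which placed it at rank 26 of 7000. The genes on either side of it per kilobase were Mup10, a major urinary protein gene, at 1668 and Scd1, a fatty acid desaturase gene, at 1532 CPM per kilobase. Only unique alignments were kept, so any reads that Mup10 shares with related genes were not counted, and its value is uncertain.

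The Apob gene spans 39188 bases of chromosome 12, from 7984454 to 8023641, and 97.0% of its matched mRNA is coding sequence. Exon 26, which holds the edited codon, has 7467 bases. The codon is number 2179 of 4505, counted from the start codon, so that editing to a stop leaves the first 48.3% of the protein, the form known as apoB-48. The alignment allowed 2 mismatches, so a read with the edited base could be counted like one without it, and the level of Apob includes both forms. Apobec1, the editing enzyme, was listed at 14.2 CPM, or 6.27 CPM per kilobase, close to the median of the listed genes at 6.19 CPM per kilobase. The share of edited Apob mRNA was not measured here.

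The genes of the main HDL proteins followed Apob in the order of the 4 listed members by CPM. Apoa2 was at 7734 CPM, which was rank 9 of the 7000 genes, and at 14845 CPM per kilobase, which was rank 2. The fatty acid binding protein gene Fabp1 was the single gene above Apoa2, at 15367 CPM per kilobase. Its mRNA was of similar size (492 bases, against 521 for Apoa2). Serpina3k, a serpin gene, was next below Apoa2 at 11212. Any reads that Serpina3k shares with related genes were not counted, so its value is uncertain. Apoa1, which encodes the major HDL protein and the activator of lecithin-cholesterol acyltransferase, was at 7504 CPM (rank 12) and 7619 CPM per kilobase (rank 6), just below Trf at 8801. By CPM the pair were nearly level, with Apoa2 1.03 times Apoa1, whereas per kilobase Apoa2 was 1.95 times Apoa1, because the Apoa1 mRNA of 985 bases is 1.89 times as long. Apoa2 lies on chromosome 1 (173155185 to 173156510, plus strand) and Apoa1 on chromosome 9 (46036663 to 46038549, plus strand), and each matched transcript has 4 exons.

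Apoc1, an inhibitor of lipoprotein uptake, was listed at 2982 CPM, rank 25 of 7000. Its mRNA of 490 bases is shorter than all but 54 listed mRNAs, and per kilobase it was at 6086 CPM, rank 7, directly below Apoa1 and above Fgb, a fibrinogen chain gene, at 4895. In its matched gene model the coding sequence printed above fills 54.8% of the mRNA and encodes 88 residues. Apoa1 exceeded Apoc1 by 2.52 times in CPM but by 1.25 times per kilobase.

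**Figure D1:**
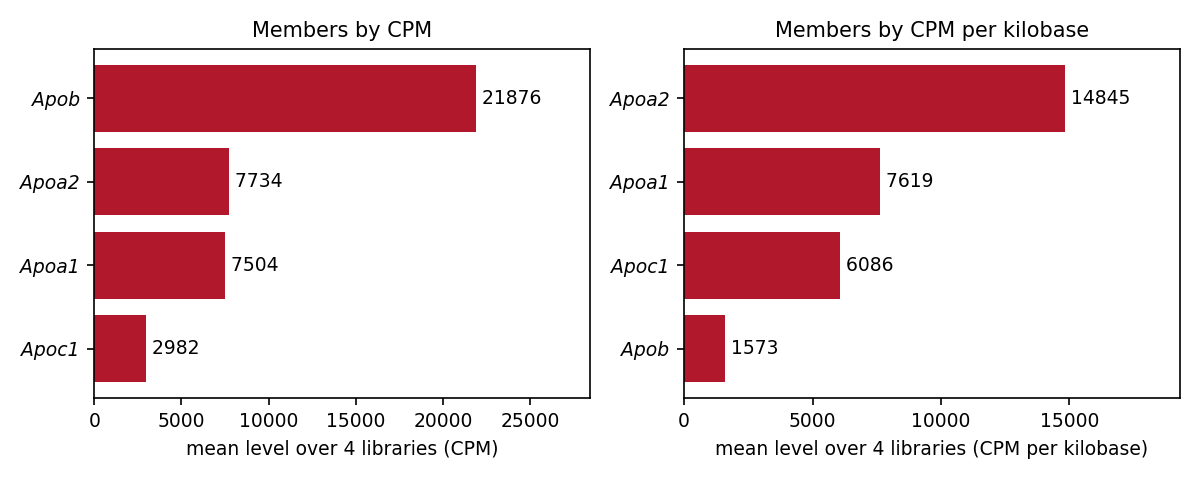
Mean levels of the listed members over the 4 libraries, in CPM (left) and in CPM per kilobase of mRNA (right), as bars from 0 with no error because no value for a single mouse was used. Apob leads at 21876 CPM and is last at 1573 CPM per kilobase, where Apoa2 leads at 14845.

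The order of the members therefore differed between the scales. In CPM it was Apob, Apoa2, Apoa1 and Apoc1, and per kilobase it was Apoa2, Apoa1, Apoc1 and Apob. Apob held 54.6% of the members' summed CPM but 5.22% of their summed CPM per kilobase, in which Apoa2 held 49.3%, Apoa1 25.3% and Apoc1 20.2%. Per kilobase the level of Apoa2 was 9.44 times, that of Apoa1 4.84 times and that of Apoc1 3.87 times the level of Apob. Whether neighbours in either order differ by more than the spread between mice was not tested, because the values used are means over the 4 libraries.

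**Figure D2:**
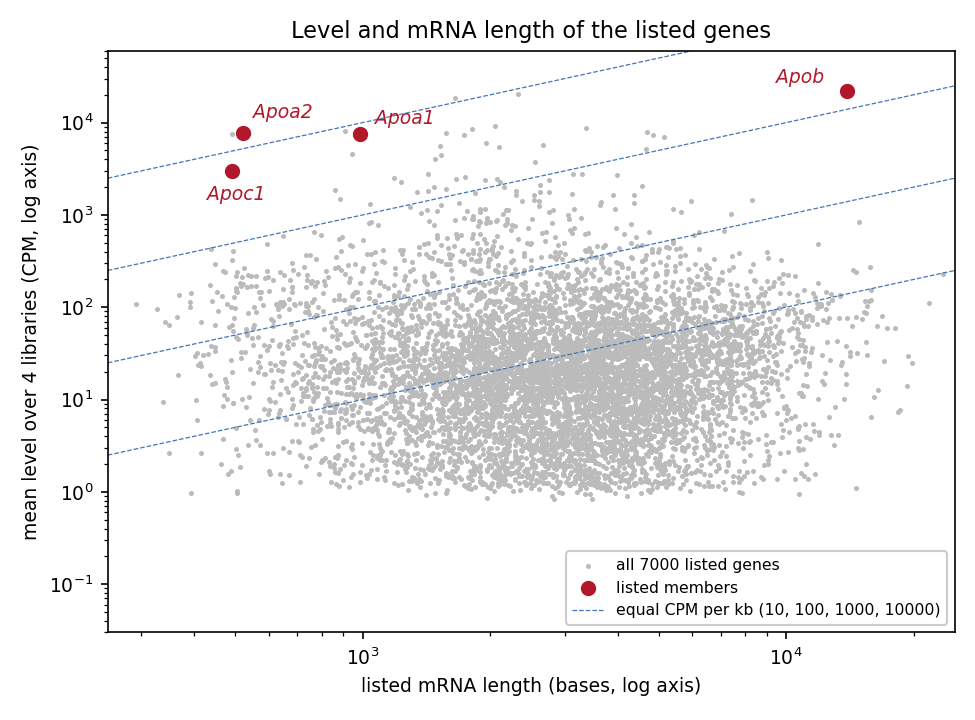
Mean level over the 4 libraries (CPM, log axis) against listed mRNA length (bases, log axis) for all 7000 listed genes (grey) and the listed members (red), with dashed lines of equal CPM per kilobase. Apoa2, Apoa1 and Apoc1 lie at the top among short mRNAs, and Apob at 21876 CPM lies at the upper right, where the highest of the 36 longer mRNAs, Lrp1, is at 847 CPM.

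The 4 members together held 40096 CPM, which was 6.19% of the 647615 CPM summed over the listed genes. All 4 were within the first 26 ranks per kilobase and the first 25 ranks by CPM. Their levels per kilobase ranged from 254 times (Apob) to 2397 times (Apoa2) the median of the listed genes.

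Apoa4, Apoa5, Apoc3, Apoe, Apom and Mttp were not listed under these symbols. Their levels are not known from the data used here, and an absent row is not a low level. The rows stand in order of the p-value of the authors' comparison of the diets, not of expression, and defining hepatocyte genes were absent as well. Of the 6 hepatocyte markers, Fgb (7700 CPM), Cyp2e1 (7257 CPM) and Tat (1415 CPM) were listed, while Alb, Ttr and Hnf4a were not. The listed genes account for 64.8% of all counts, if mean CPM values add up to 1000000, which leaves 352385 CPM for genes that are not listed.

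Of the 10 members, 6 lie in gene clusters. Apoa1, Apoc3, Apoa4 and Apoa5 form a cluster of 43.3 kb on chromosome 9 (46036663 to 46080002), of which Apoa1 alone was listed. Apoe and Apoc1 lie on chromosome 7 with Apoc4 and Apoc2, within 27.6 kb (20256928 to 20284515). From that cluster Apoc1 was listed at 6086 and Apoc2, the cofactor of lipoprotein lipase, at 150.5 CPM per kilobase, so that Apoc1 was 40.4 times Apoc2. The annotated gene of Apoc2 overlaps that of Apoc4 on the same strand, so its value is uncertain. Mttp (chromosome 3, 137752819 to 137806352), Apom (chromosome 17, 35265942 to 35268995), Apoa2 and Apob lie apart from the clusters.

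**Figure D3:**
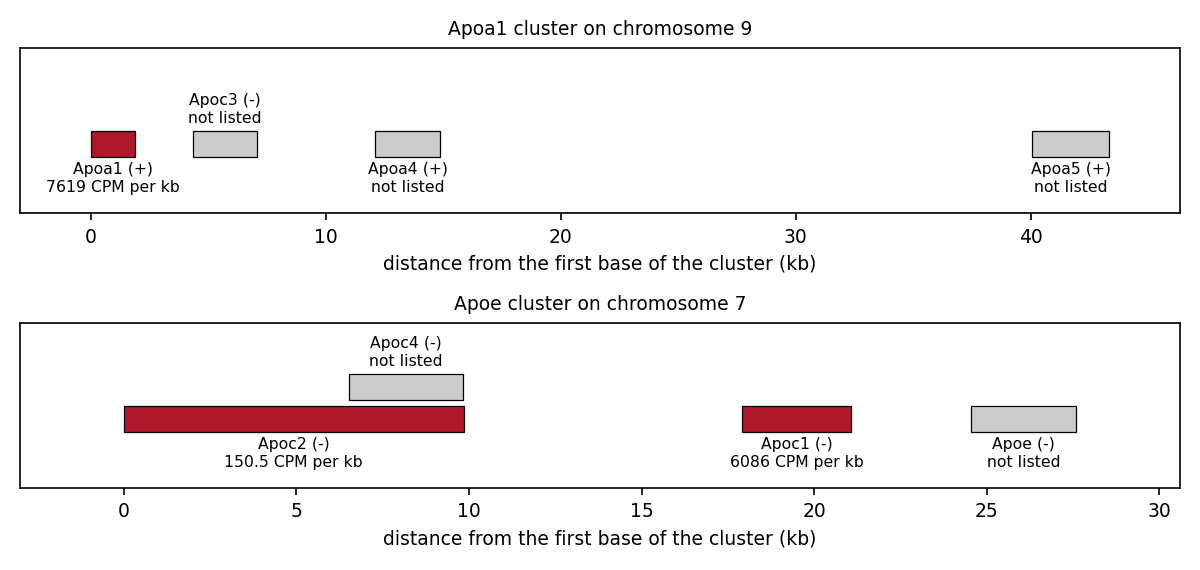
Gene models of the clusters around Apoa1 (top) and Apoe (bottom), with distance from the first base in kb, strand in brackets and listed genes in red with their mean CPM per kilobase. Apoa1 is the listed gene of the upper cluster, and Apoc1 at 6086 and Apoc2 at 150.5 are those of the lower one.

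Other genes of lipoprotein metabolism, and further genes with an apolipoprotein name, were read in 6 lists of 50 genes. Of these, 31 were listed, and 27 of the listed ones lay above the median of 6.19 CPM per kilobase. Among other genes named as apolipoproteins, 7 of 10 were listed, with a median of 50.02 CPM per kilobase against 6852 for the 4 members. That median is the value of Apol7a, and whether each product is a part of lipoproteins was not tested. Apoh, the phospholipid-binding plasma protein beta-2-glycoprotein I, was at 2136 CPM per kilobase, above Apob. Apof, a regulator of cholesterol transfer, was at 285 and Apoc2 at 150.5 CPM per kilobase. The remaining 4, Apol7a, Apol9b, Apool and Apol9a, lay between 14.8 and 50.02 CPM per kilobase, and since Apol9a and Apol9b are near-identical copies whose shared reads were not counted, their values are uncertain. Apoc4, Apod and Apoo were not listed.

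For assembly and secretion, 10 of 12 genes were listed. P4hb, which encodes protein disulfide isomerase, the partner subunit of the Mttp protein, was at 1459 CPM and 575 CPM per kilobase, while Mttp itself was not listed. Sar1b, the small GTPase of the vesicles that carry large lipoproteins out of the endoplasmic reticulum, was at 157 CPM per kilobase and its paralog Sar1a at 44.4. Surf4, a cargo receptor for lipoproteins, was at 116 CPM per kilobase. Pla2g12b at 42.5, Cideb at 24.9 and Tm6sf2 at 13.4 CPM per kilobase encode proteins needed for loading particles with triglyceride. The enzymes of neutral lipid synthesis Soat2 and Dgat1 were at 14.5 and 11.9 CPM per kilobase, and Dgat2 and Mia2 were not listed. None of these 10 listed genes reached the level of Apob.

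Of the genes for HDL maturation and remodelling, 3 of 8 were listed. Scarb1, the HDL receptor, was at 39.6 CPM per kilobase, the endothelial lipase gene Lipg at 9.67 and the cholesterol exporter gene Abcg1 at 2.42. Abca1, Lcat, Pltp, Lipc and Bmp1 were not listed. Of the triglyceride lipase genes and their regulators, 1 of 4 was listed, the lipase inhibitor Angptl4 at 71.5 CPM per kilobase, and Lpl, Gpihbp1 and Lmf1 were not.

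Of the genes for uptake, 3 of 6 were listed. Lrp1, a receptor for remnant particles, was at 847 CPM, and with an mRNA of 14891 bases, longer than that of Apob, it was at 56.9 CPM per kilobase. The sorting receptor Sort1 was at 5.48 and Vldlr, the receptor for very low density lipoprotein, at 2.29 CPM per kilobase. Lrp8, Sdc1 and Mylip were not listed.

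Of the transcription factors that act on these genes, 7 of 10 were listed. Nr1h4, the bile acid receptor, was at 56.3, Nr1h3, an oxysterol receptor, at 52.5 and Ppara, the fatty acid receptor, at 47.9 CPM per kilobase. Nr0b2 was at 31.6, Nr5a2 at 19.8, Foxa2 at 9.40 and Srebf2 at 3.40 CPM per kilobase. Hnf4a, Creb3l3 and Srebf1 were not listed.

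**Figure D4:**
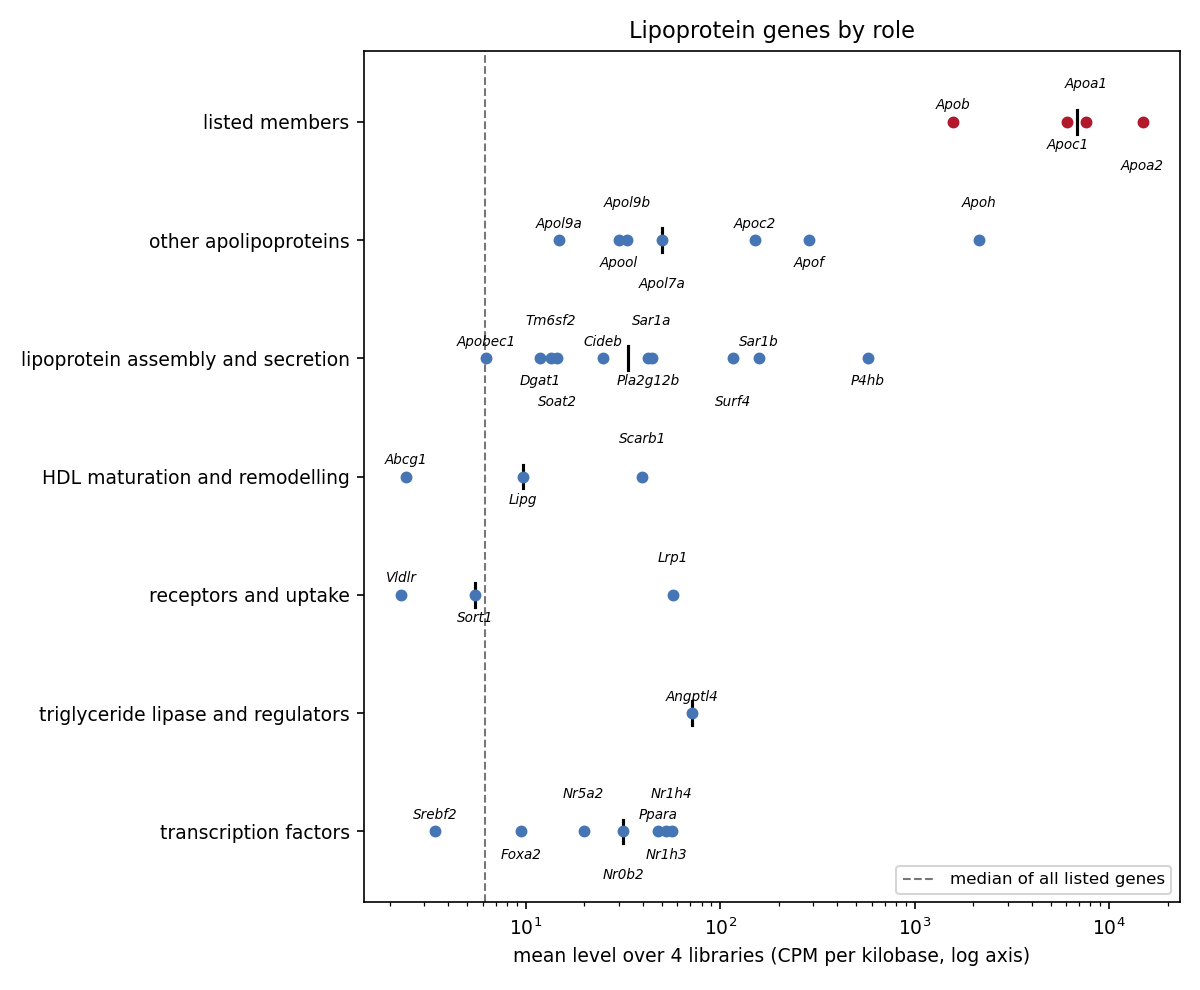
Mean level over the 4 libraries (CPM per kilobase, log axis) of each listed gene by role, with black ticks for the median of each list and a dashed line for the median of all listed genes at 6.19. The members (red) lie between 1573 and 14845, and Apoh at 2136 is the single gene of the 6 other lists drawn here within that range.

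Markers of other cells of the liver were present at lower levels. All 5 Kupffer cell markers were listed, with 428 CPM in sum and Clec4f the highest at 180 CPM, as were all 4 stellate cell markers with 351 CPM in sum and 3 of 4 markers of sinusoidal endothelium with 256 CPM in sum. Of the genes read as lymphocyte markers, Ptprc, which is not specific to lymphocytes among leukocytes, was listed at 21.9 CPM, and Cd3e was not. None of the 4 cholangiocyte markers was listed. Of the 5 enterocyte markers, Fabp2 was listed at 103 CPM and Vil1, Lct, Sis and Cdx2 were not, the small intestine being the other main source of apolipoproteins. The part of other cells in the members' levels was not tested.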

How the data were processed

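Liver libraries came from 2 mice for each of 0 Se and 0.1 Se, as their labels state. The authors removed adapters and ribosomal RNA reads, aligned with Bowtie against RefSeq mRNAs (mm9, longest isoform) and kept unique alignments with up to 2 mismatches. Genes above 1 CPM in at least 3 samples were compared by them with edgeR, version not given in the sources used here. Mean CPM over the 4 libraries, on the log2 scale, and the mRNA length were used as deposited by the authors. The table's other columns hold the authors' comparison of the diets (log2 fold change, p-value, false discovery rate) and were not used, except to check that the rows are in order of p-value. Because 0 columns hold single mice, the edgeR fit on counts foreseen for that case was not run.

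The log2 values were raised to CPM and divided by length. Listed genes are those the authors' table holds, so ranks and medians describe these 7000 genes and not the transcriptome. Since the rows are in order of p-value, whether a gene is listed may depend on the comparison of the diets. That was not tested, and it bears on every rank, median and count of listed genes. The calculation was tested on simulated data. Gene models come from GENCODE on NCBIM37 (mm9), each gene's transcript being the one closest in length to the listed mRNA, within 50 bases for the listed members, or otherwise the longest. Synonyms of unlisted genes on the lists come from RefSeq (GRCm38.p6), and those of the members were not looked up. Depth per library is not in the values used, so no interval is given. The members and lists were chosen with earlier results of these data known. Named genes are all members, the genes of the 6 lists, and the neighbour above and below each member per kilobase; some genes first placed on the lists are not reported here. Cell type markers are given as counts and sums, with examples. Alternatives were another length, CPM in place of CPM per kilobase, a minimum of 1 CPM and other denominators. Python 3.11.15, numpy 2.4.6, pandas 2.3.3 and matplotlib 3.10.9 were used.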

Additional observations from a re-analysis of the deposited data

How the results depend on the processing

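No paired analysis was possible because the values are means over all 4 libraries, and leaving out each mouse in turn could not be run for the same reason. The spread between mice was not computed from these means, so any change in the first 3 digits is given. With the length reduced to the positions where a read of 50 bases can start, the levels were 16386 CPM per kilobase for Apoa2, 8017 for Apoa1, 6763 for Apoc1 and 1578 for Apob. With the longest annotated transcript they were 14931 for Apoa2, 7251 for Apoa1 and 6124 for Apoc1, and that of Apob kept its first 3 digits. The order per kilobase was the same with each of these lengths. By CPM the order of the members changed at every place, with Apob at 1, Apoa2 at 2, Apoa1 at 3 and Apoc1 at 4. The percentiles among listed genes by CPM were 100 for Apob, 99.9 for Apoa2, 99.8 for Apoa1 and 99.7 for Apoc1, and a minimum of 1 CPM, which 6981 genes reach, left all 4 percentiles per kilobase the same to 3 digits. The members' summed CPM came to 6.41% of the sum over listed genes without the most abundant one, a ratio and not a share, since that gene is Apob and the members' sum still held it, and to 4.01% when divided by 1000000 CPM. Leaving Apob out of both sums, an alternative chosen after seeing the data, gave a share of 2.91%.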

Other observations

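Other listed symbols that begin with Apo were picked after their values were seen. Apon, an apolipoprotein gene that mice keep next to Apof, was at 252 CPM and 156 CPM per kilobase, rank 336 of the 7000 genes per kilobase. Apol10a and Apold1, of the apolipoprotein L family and a related domain, were at 0.723 and 0.526 CPM per kilobase, and Apobr, the receptor of macrophages for Apob, was at 0.331. Apoa1bp, whose product binds Apoa1 and repairs hydrated NADH, was at 45.0 CPM per kilobase. Apopt1, named for apoptosis and not for a lipoprotein, was at 14.4.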
